A study of Homo sapiens with 2 samples.

Results

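The S100 genes described here are 10 genes of a family of small calcium-binding proteins: S100A2, S100A3, S100A4, S100A6, S100A10, S100A11, S100A13, S100A14, S100A16 and S100P. They were chosen by symbol from the 51640 symbols of the deposited expression tables, with earlier results of these data known. Each had a row of its own with an accepted estimate (status OK) in both tables. The cells were HCT116, an epithelial line established from a human colon cancer, grown in medium with 10% fetal bovine serum to 80% confluence. Paired-end libraries were made from 1 µg of total RNA of 2 cultures, which the submitters describe as biological replicates and name PF and PJ. No treatment or genotype is given that separates them, and normal colon, which the design also names, was not analysed here. HCT116 is a single established line, so these values describe that line and not colon tumours in general.

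S100 proteins carry a pair of EF-hand calcium-binding loops and usually work as dimers. On binding calcium, most of them open a surface that grips partner proteins such as annexins, myosin or ezrin, and some are released from cells and act on the receptor AGER (also called RAGE). S100A10 is a known exception inside cells, since its loops no longer bind calcium and it is held by annexin A2. Most genes of the family lie in a cluster on the long arm of chromosome 1 beside genes of skin differentiation. In the intestine the family is best known for S100A8 and S100A9, whose neutrophil protein calprotectin is measured in stool as a sign of inflammation.

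Of the 10 genes, 9 lie on chromosome 1 and S100P lies on chromosome 4 (hg19, 6694796 to 6698897). S100A10 (151955391 to 151966866) and S100A11 (152004982 to 152020383) stand 38115 bp apart from each other and 1309946 bp before the next S100 gene. The other 7 lie within a stretch of 276544 bp (153330330 to 153606873) that holds 15 S100 genes. In the order of their positions these are S100A6 (153507075 to 153508720), S100A4 (153516089 to 153522612), S100A3 (153519805 to 153521848), S100A2 (153533584 to 153540366), S100A16 (153579362 to 153585644), S100A14 (153586731 to 153589462) and S100A13 (153591263 to 153606873). All 9 genes of chromosome 1 are read from the minus strand and S100P from the plus strand, by GENCODE release 29. Their open reading frames are alike in size, from 90 codons in S100A6 to 105 in S100A11. Over the 45 pairs of genes the aligned coding sequences were 42.2% to 69.0% identical (median 52.2%), with S100A2 and S100A4 the closest pair and S100A10 and S100A14 the most distant.

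To show where transcription of the genes that the results turn on starts, the 250 bases before the start of each are given from RefSeq (GRCh38.p14), 5′ to 3′ on the strand of the gene. Shown are S100A6, the most abundant; S100A10, S100A4, S100A16 and S100A14, which differed at least 2-fold between the libraries; and S100P, the lowest. For S100A16, which has several listed starts, the outermost is shown. Capitals mark TATAAA (the core of the TATA box), TGACTCA (bound by AP-1 factors), GGGCGG (bound by SP1-like factors) and CACGTG, each searched on both strands.
S100A6: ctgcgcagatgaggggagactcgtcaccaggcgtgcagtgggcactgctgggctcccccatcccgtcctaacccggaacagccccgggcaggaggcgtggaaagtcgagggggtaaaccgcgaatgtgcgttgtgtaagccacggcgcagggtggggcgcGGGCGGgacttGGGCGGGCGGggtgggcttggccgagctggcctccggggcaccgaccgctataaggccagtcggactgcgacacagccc
S100A10: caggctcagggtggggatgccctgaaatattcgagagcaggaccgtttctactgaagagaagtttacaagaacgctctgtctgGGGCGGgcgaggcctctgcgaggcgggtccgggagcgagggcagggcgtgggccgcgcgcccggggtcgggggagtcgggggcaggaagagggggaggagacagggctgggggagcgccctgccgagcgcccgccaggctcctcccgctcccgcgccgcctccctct
S100A4: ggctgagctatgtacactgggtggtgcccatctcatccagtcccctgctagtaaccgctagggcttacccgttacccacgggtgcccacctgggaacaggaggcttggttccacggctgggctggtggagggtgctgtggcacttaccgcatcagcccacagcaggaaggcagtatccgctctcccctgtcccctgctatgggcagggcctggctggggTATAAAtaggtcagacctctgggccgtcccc
S100A16: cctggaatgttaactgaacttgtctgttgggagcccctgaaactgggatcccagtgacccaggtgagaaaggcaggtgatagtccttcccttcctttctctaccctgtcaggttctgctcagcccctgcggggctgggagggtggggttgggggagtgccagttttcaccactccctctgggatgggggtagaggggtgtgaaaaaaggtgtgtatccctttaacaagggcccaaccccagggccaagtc
S100A14: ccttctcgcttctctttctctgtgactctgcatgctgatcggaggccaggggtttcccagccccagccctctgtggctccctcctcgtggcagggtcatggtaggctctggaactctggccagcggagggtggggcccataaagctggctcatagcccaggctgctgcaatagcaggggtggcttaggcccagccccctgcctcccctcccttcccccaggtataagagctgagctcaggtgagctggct
S100P: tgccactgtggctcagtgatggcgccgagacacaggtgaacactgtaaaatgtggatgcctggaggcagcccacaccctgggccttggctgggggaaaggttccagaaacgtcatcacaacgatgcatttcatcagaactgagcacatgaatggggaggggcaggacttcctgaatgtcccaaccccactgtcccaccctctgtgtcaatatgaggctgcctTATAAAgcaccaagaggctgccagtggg

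The S100A4 window (chr1:153545807-153546056) holds TATAAA from 31 bases before the start and the S100P window (chr4:6693628-6693877) from 28 bases before it. The S100A6 window (chr1:153535992-153536241) holds GGGCGG 3 times, 2 of them overlapping, and the S100A10 window (chr1:151993860-151994109) holds it once. Neither the S100A14 window (chr1:153616326-153616575) nor that of the adjacent S100A16 (chr1:153613138-153613387) has a capital letter, which says only that these letters are not in these windows; the window of the other start of S100A16 holds GGGCGG once. All 10 genes matched the RefSeq table, with 14 windows in all. A gene with several windows has more chances to hold a motif, so counts of windows are set against the shares over all windows. TATAAA was found in 3 of the 14 windows (S100A4, S100A13 and S100P) and in 10.7% of all 35116 windows of this length. By gene it was in 3 of the 10, and in 7 of 9 other S100 genes with a window. GGGCGG was found in 6 of the 14 windows, against 42.6% of all windows. By gene it was in 6 of the 10 and in 1 of those 9. TGACTCA was found in 2 of the 14 windows (S100A2 and S100A3), in 4.2% of all windows and in 1 of those 9 genes. CACGTG was in 0 of the 14 windows, in 6.34% of all windows and in 0 of those 9 genes. The looser E-box letters CANNTG, which include CACGTG, were found in 10 of the 14 windows, against 61.8% of all windows. By gene they were in 7 of the 10 and in 7 of those 9. Genes differ in how many starts are listed, and which start HCT116 uses was not measured.

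Levels are given in FPKM, the fragments assigned to a gene per kilobase of transcript, scaled to the number of mapped fragments, so that genes of different length can be compared. HCT116 cells expressed 9 of the 10 genes above the 1 FPKM threshold in both, against a background of 27.9% of all 51609 symbols with a value in each. S100P was the exception. Since the 10 genes were chosen with earlier results of these data known, their share cannot be read as a result about the family. Over all 21 family genes it was 10, or 47.6%. The summed level was 1592 FPKM in PF and 1721 in PJ, 1.08 times as much. S100A6, S100A10 and S100A4 made up 74.7% of that sum in PF and 82.4% in PJ. No count of fragments is given in the tables, so depth is unknown and precision is described by the deposited confidence bounds, which leave out variation between cultures.

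**Figure D1:**
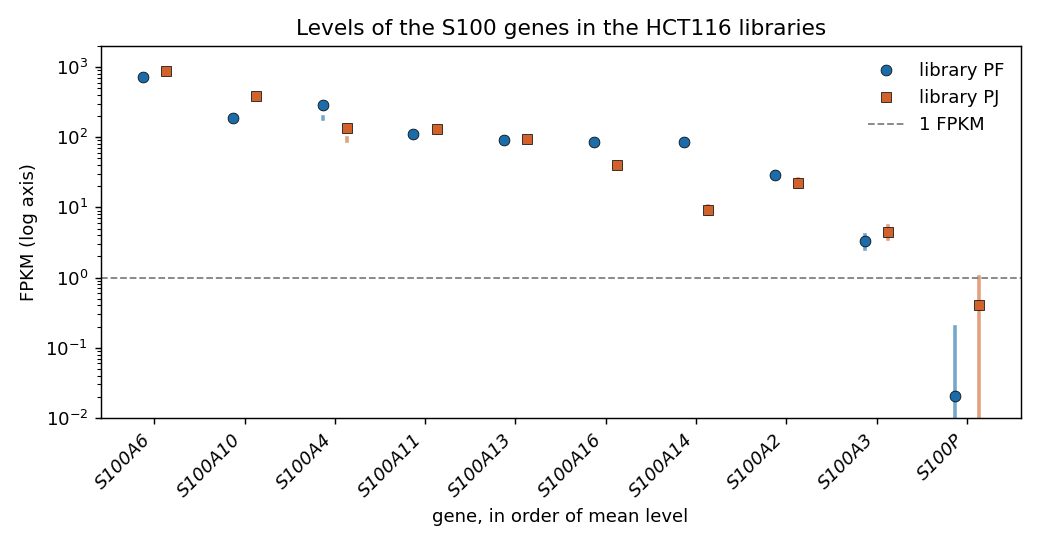
FPKM (log axis) of the 10 S100 genes in library PF (circles) and library PJ (squares), in order of mean level, with the deposited bounds as vertical lines (cut at the lower edge where the lower bound is 0) and 1 FPKM as a dashed line. S100A6 is highest in both libraries, S100P lies below the dashed line in both, and S100A14 shows the widest gap among the 9 genes above it.

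S100A6 (ENSG00000197956.4), calcyclin, which binds the ubiquitin ligase adaptor CACYBP, was the most abundant. It stood at 715 FPKM (bounds 705 to 739) in PF and 890 (883 to 919) in PJ, a mean of 802 ± 123 (SD, n = 2). That placed it above 98.9% of the symbols expressed in both libraries, in PF as in PJ. It alone accounted for 44.9% of the summed S100 level in PF and 51.7% in PJ.

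S100A10 (ENSG00000197747.4), the partner of annexin A2 at the cell surface, was at 189 FPKM (182 to 198) in PF and 392 (384 to 408) in PJ. The bounds were well apart, and its share of the summed level was 11.9% in PF and 22.8% in PJ. S100A11 (ENSG00000163191.5), a partner of annexin A1 that lies next to S100A10, was far steadier, at 110 FPKM (103 to 116) in PF and 132 (125 to 139) in PJ. Both genes of this separate stretch had higher FPKM in PJ, by 2.08 and 1.20 times, where the median expressed symbol was higher by 1.19 times.

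S100A4 (ENSG00000196154.7), metastasin, which binds non-muscle myosin and is linked to cell migration, was listed at 285 in PF and 136 FPKM in PJ. These estimates lie above their own bounds, which run from 180 to 195 in PF and from 88.2 to 98.4 in PJ. S100A4 was the only one of the 10 genes outside its bounds in both libraries, which was so for 11.1% of 15577 symbols. Estimates and bounds both put S100A4 lower in PJ, and the bounds of the libraries were apart. S100A3 (ENSG00000188015.5), known from the hair cuticle, lies wholly within the deposited span of S100A4 on the same strand. It was low, at 3.28 FPKM (2.51 to 4.06) in PF and 4.47 (3.55 to 5.39) in PJ, with overlapping bounds. In RefSeq the start of S100A3 (window chr1:153549259-153549508) lies upstream of the S100A4 start shown above (window chr1:153545807-153546056). The overlap therefore concerns S100A4 RNA that starts farther upstream than the start shown. The exons of S100A3 and S100A4 share no base in GENCODE release 29. Unspliced S100A4 RNA from such a start and S100A3 RNA cannot be told apart where the spans overlap, so the S100A3 level is uncertain. Its level was 0.0115 of the S100A4 level in PF and 0.0328 in PJ.

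S100A2 (ENSG00000196754.5), a gene that p53 can activate and whose protein binds p53, was at 29.04 FPKM (25.8 to 32.2) in PF and 22.4 (19.6 to 25.2) in PJ. Its bounds were narrowly apart. S100A13 (ENSG00000189171.8), which takes part in the release of FGF1, was almost the same in both, at 89.9 FPKM (84.3 to 95.5) in PF and 94.2 (88.4 to 100.04) in PJ. It overlaps S100A1 on the opposite strand, with 235 exonic bases in common, and no source used here states that counting used strand. Reads of these genes cannot be told apart there, and S100A1 itself was at 0.423 in PF and 0.394 FPKM in PJ. The span of S100A13 also overlaps that of CHTOP (49.4 in PF and 66.0 FPKM in PJ) over 349 bp. Whether exons are shared there was not examined.

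S100A14 (ENSG00000189334.4) and S100A16 (ENSG00000188643.5), both known from epithelia, are neighbours with 1086 bp between them. They were nearly equal in PF, at 85.1 FPKM (81.1 to 89.5) for S100A14 and 86.0 (82.4 to 90.2) for S100A16. In PJ, S100A14 was at 9.23 FPKM (8.10 to 10.4) and S100A16 at 40.5 (38.2 to 43.0), so both were lower and no longer equal. The ratio of S100A14 to S100A16, which no scaling of a library can change, was 0.989 in PF and 0.228 in PJ. The 3′ end of the next gene, S100A13, lies 1800 bp from the span of S100A14. The ratio of S100A13 to S100A14 was 1.06 in PF and 10.2 in PJ. In bulk RNA, fewer cells of a type and less RNA per cell cannot be told apart. S100A14 ranked above 90.3% of the expressed symbols in PF and above 39.2% in PJ, and S100A16 above 90.4% and 76.5%.

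S100P (ENSG00000163993.6), found at high levels in many carcinomas and a partner of ezrin, was at 0.0204 FPKM (0 to 0.198) in PF and 0.404 (0 to 1.03) in PJ. Both lower bounds were 0 and the bounds overlapped, so a difference between the libraries was not detectable. S100P did not pass the filter on low values (a mean of 1 FPKM or more) used for the comparison of the libraries.

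By mean level the order was S100A6, S100A10, S100A4, S100A11, S100A13, S100A16, S100A14, S100A2, S100A3 and S100P. Among the 9 pairs of neighbours in that order, the ranges of the 2 libraries overlapped for 3: S100A10 (290 ± 144, SD, n = 2) with S100A4 (211 ± 105), S100A16 (63.3 ± 32.2) with S100A14 (47.1 ± 53.6), and S100A14 with S100A2 (25.7 ± 4.71). The other 6 pairs did not overlap. The separation of S100A4 from S100A11 (121 ± 15.7) rests on S100A4 estimates outside their bounds, whose midpoints were 187 FPKM in PF and 93.3 in PJ. The PJ midpoint is below S100A11 in both libraries (110 in PF and 132 in PJ), and the PF midpoint is above both, so by midpoints the ranges overlap. S100A13 (92.0 ± 3.02) had the smallest spread for its level, and S100A3 stood at 3.88 ± 0.839 FPKM.

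**Figure D2:**
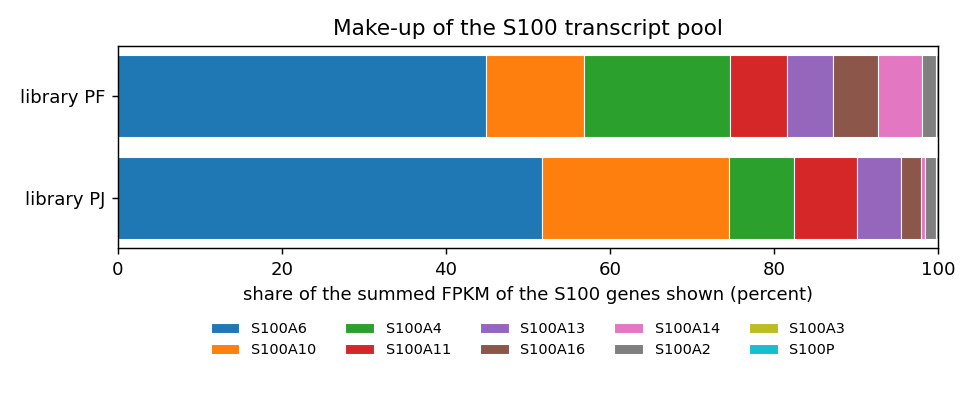
Share (percent) of the summed FPKM of the 10 S100 genes taken by each gene in library PF and library PJ. S100A6 takes the widest part in both (44.9% and 51.7%), S100A10 is wider in PJ (22.8% against 11.9%), and S100A4 (17.9% against 7.92%), S100A16 (5.40% against 2.35%) and S100A14 (5.34% against 0.536%) are narrower in PJ.

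The libraries were then compared with each other, to see how far replicate cultures of the line differed in these genes. Each side is 1 library, so there is no test and no p-value, and the differences have no replicate check. On the scale of log2(FPKM + 1), PJ over PF, which understates the change of low genes, 1 of the 9 genes that passed the filter was at least 2-fold higher in PJ and 3 were at least 2-fold lower. Over all 15736 symbols that passed, 10.4% were 2-fold higher and 5.22% were 2-fold lower. The gene that was higher was S100A10 (log2 ratio 1.05), and 9.32% of all symbols had a larger ratio.

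S100A14 had the lowest log2 ratio (-3.07), and only 105 of the 15736 symbols, 0.667%, were lower still. S100A16 (-1.07) and S100A4 (-1.06) stood just past the 2-fold line, with 4.67% and 4.79% of all symbols lower. The other 5 genes were within 2-fold: S100A2 (-0.36), S100A13 (0.07), S100A11 (0.26), S100A6 (0.31) and S100A3 (0.35). The bounds of the libraries were apart for 7 of the 9, all but S100A3 and S100A13, but this was so for 62.9% of symbols and is no mark of these genes.

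The median log2 ratio of the 9 genes was 0.07, against 0.22 for all symbols. FPKM values as a whole were higher in PJ, by a median of 1.19 times (0.25 on the log2 scale) over expressed symbols. With that shift divided out, S100A10 was no longer 2-fold apart (0.80), and S100A14 (-3.29), S100A16 (-1.31) and S100A4 (-1.30) remained so. The background was then 6.22% higher and 7.24% lower. S100A6 (0.07) and S100A11 (0.02) came close to the typical gene, and S100A13 changed sign (-0.18). The call for S100A4 also depends on which deposited value is used, since the midpoints of its bounds gave -0.9986, just short of 2-fold.

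**Figure D3:**
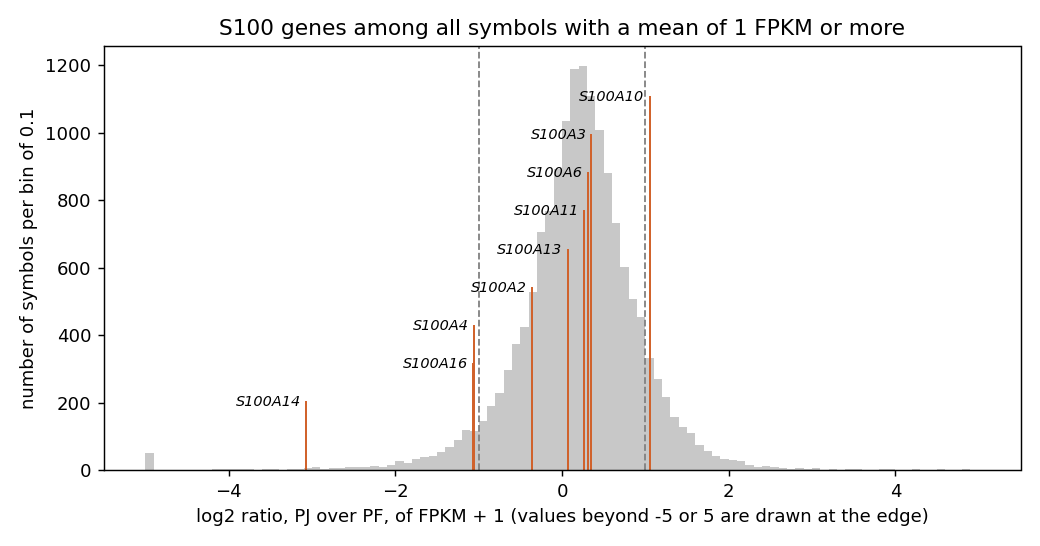
Histogram of the log2 ratio, PJ over PF, of FPKM + 1 for the 15736 symbols whose mean reached 1 FPKM (number of symbols per bin), with the 9 S100 genes that passed the filter as labelled lines whose heights carry no value, and dashed lines at 2-fold. 5 genes sit inside the dashed lines, S100A10 just beyond the right one, S100A4 and S100A16 just beyond the left one, and S100A14 far to the left at -3.07.

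Close neighbours in the cluster could differ in how far apart the libraries were, since S100A14 lies 1800 bp from S100A13, which was within 1.05 times of equal. The chain ends at CHTOP, a chromatin target gene outside the family, at 49.4 in PF and 66.0 FPKM in PJ. Its span overlaps that of S100A13 over 349 bp. The only other gene of the stretch outside the family above the 1 FPKM threshold in both was AL591704.5, at 3.01 and 4.82. BX470102.3, which overlaps S100A6 over 517 bp, was at 0.658 and 0.919 FPKM, and AL450992.6, between S100A10 and S100A11, was at 0.617 and 1.06. AL591893.1, whose span overlaps S100A11 over 10269 bp, was at 0.0209 and 0.00698, and AL591704.7, AL591704.9 and Metazoa_SRP were listed at 0 in both.

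**Figure D4:**
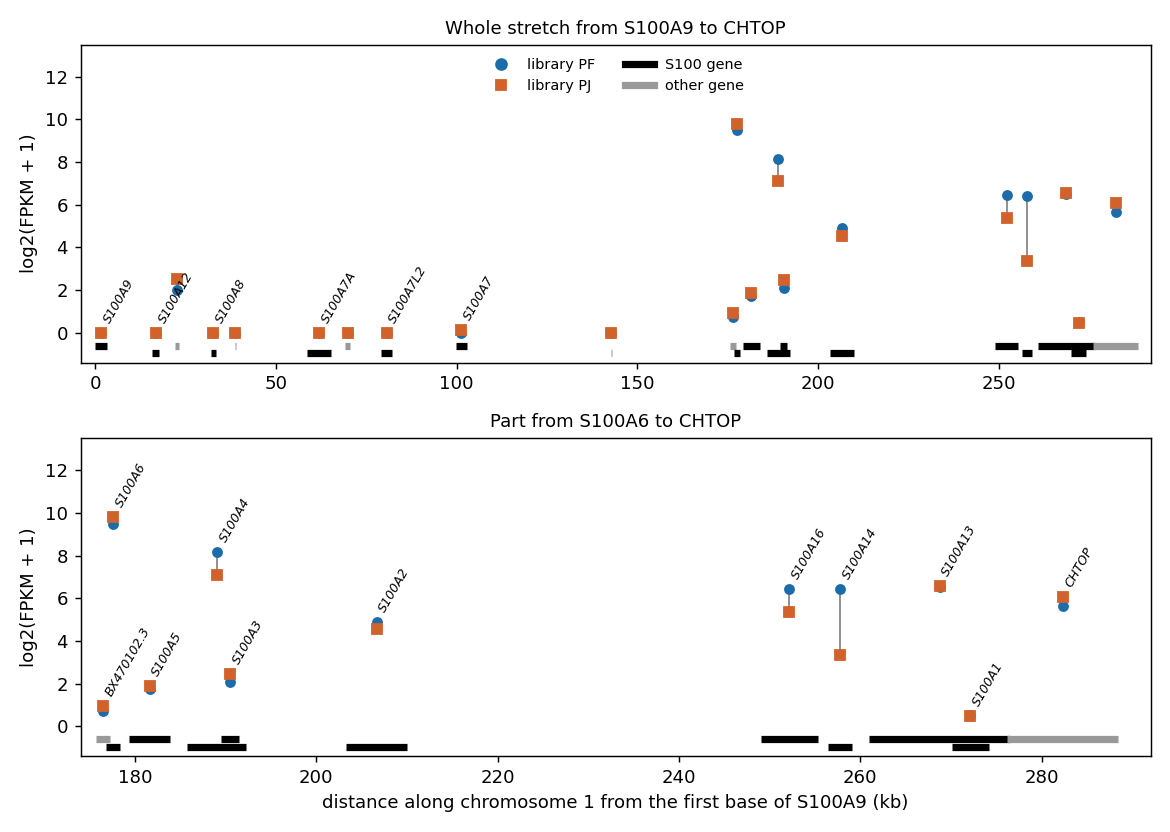
log2(FPKM + 1) in library PF (circles) and library PJ (squares) against distance (kb) along chromosome 1 from the first base of S100A9, with gene spans as black (S100) or grey (other) bars, for the whole stretch (top) and its right part (bottom). The S100 genes from S100A9 to S100A7 lie at or near 0 in both libraries, S100A6 is highest, S100A5 and S100A3 are low, and S100A14 shows the largest gap between the libraries.

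The rest of the family was nearly silent. Which genes fell in the 10 and which in the rest was set with earlier results of these data known, so the contrast between them is no separate result. Of 11 other S100 genes only S100A5, next to S100A6, was above the 1 FPKM threshold in both, at 2.35 FPKM (1.54 to 3.16) in PF and 2.69 (1.93 to 3.45) in PJ. The inflammation genes S100A8 (listed at 0 in both), S100A9 (0 in PF and 0.000698 in PJ) and S100A12 (0.00572 and 0.00984) gave almost no signal. The skin genes S100A7A and S100A7L2 were listed at 0 in both, and S100A7 (psoriasin) at 0 in PF and 0.0962 in PJ. S100B, a gene of glia and melanocytes, was at 0 and 0.0339 FPKM. S100G, the vitamin D dependent calbindin of the intestine, was listed at 0 in both, and S100Z was at 0.00459 and 0.00481. With S100P, 11 of the 21 family genes were under 1 FPKM in both libraries.

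Markers of myeloid cells, in which S100A8, S100A9 and S100A12 are usually found, were likewise low, with 1 of 10 above the 1 FPKM threshold in both and a summed level of 2.60 FPKM in PF and 2.76 in PJ. That 1 was FCER1G (1.17 and 1.31), followed by CSF1R (0.519 and 0.738), ITGAM (0.446 and 0.510) and CD14 (0.368 and 0.108). FCGR3B was at 0.00103 FPKM in PF while PJ listed it at 0. None of 7 squamous markers was above the 1 FPKM threshold in both, with a summed level of 3.70 and 1.15 FPKM. Most of that was DSC3 (2.73 and 0.779), which passed the filter on the mean (log2 ratio -1.07). Below it came KRT13 (0.499 and 0.119), KRT14 (0.125 and 0.141) and KRT5 (0.174 and 0.0658), with DSG3 lowest (0.00485 and 0.000787). None of the 7 fused-type S100 genes, such as TCHH (0.0164 and 0.0340), HRNR (0.0131 and 0.00666), RPTN (0 and 0.00677), FLG (0.000720 and 0.00475) and CRNN (listed at 0 in both), was above that threshold either. The same held for the 12 skin differentiation genes of the region, 7 of them listed at 0 in both, with PGLYRP3 (0.0466 and 0.000900), SMCP (0.0393 and 0.00978), IVL (0.0244 and 0) and SPRR2D (0.0237 and 0) the highest.

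Of a list of 20 genes whose proteins S100 proteins are known to bind, 15 were above the 1 FPKM threshold in both, as were 27.9% of all symbols. The list was chosen with earlier results of these data known, so its share cannot be read as a result about partner genes. The membrane linker gene EZR, a partner of S100P, was at 224 in PF and 334 FPKM in PJ. ANXA1, a partner of S100A11, was at 209 and 300 FPKM, and ANXA2, the partner of S100A10, at 258 and 239. CACYBP, the partner of S100A6, was at 81.5 and 147 FPKM. The receptor gene AGER was low, at 2.84 and 2.34 FPKM, and the calcium channel gene TRPV5, whose protein S100A10 helps to the membrane, was at 0.000986 and 0.000299. The others that missed the threshold in a library were TRPV6 (0.384 and 0.0434), the potassium channel gene KCNK3 (0.189 and 0.349), FGF1 (0.474 and 0.279) and SYT1.

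Of the 16 partner genes that passed the filter, 1 was 2-fold higher in PJ and 1 was 2-fold lower, with 14 within 2-fold and a median log2 ratio of 0.09. Over all symbols 15.6% were at least 2-fold apart, so these counts are no mark of the list. The higher partner gene was PPFIBP1 (liprin beta), a partner of S100A4, at 21.1 in PF and 49.7 FPKM in PJ (log2 ratio 1.20, and 0.95 with the shift divided out). The lower gene was SYT1, which encodes a synaptic vesicle protein that joins S100A13 in the release of FGF1, at 42.4 and 0.715 FPKM (-4.66). S100A10 and ANXA2 differed in this, since ANXA2 had a log2 ratio of -0.11 against 1.05 for S100A10.

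Of 20 other EF-hand genes 19 were above the 1 FPKM threshold in both, all but EFHD1 (0.233 FPKM in PF and 0.404 in PJ), where 27.9% of all symbols were. All 19 were within 2-fold, with a median log2 ratio of 0.21, where 15.6% of all symbols were at least 2-fold apart. This list was also chosen with earlier results of these data known, so neither count can be read as a result about EF-hand genes. CALM2 and CALM3, which encode the general calcium sensor calmodulin, were at 318 and 393 FPKM and at 201 and 190, and the calpain subunit gene CAPNS1 was at 199 and 207. S100A6 stood above these 3 genes in both libraries, and S100A10 was below CALM2 in PF (189 against 318) and level with it in PJ (392 against 393).

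Of a list of 10 epithelial markers, 9 reached 1 FPKM or more in both libraries, where 27.9% of all symbols did. The exception was VIL1, of the brush border, at 0.159 in PF and 0.314 FPKM in PJ. The marker list was chosen with earlier results of these data known, so this share does not test the label of an epithelial line. The summed level of the 10 was 1616 FPKM in PF and 960.2 in PJ. Of the 9, 7 were lower in PJ and 3 of these at least 2-fold: KRT8 (760, just under its own lower bound of 764, and 280 FPKM), the E-cadherin gene CDH1 (21.9 and 1.80) and the claudin gene CLDN4 (33.3 and 11.3). Over all 15736 symbols that passed the filter, 5377 were lower in PJ, and 5.22% were at least 2-fold lower. The other epithelial genes of high level were KRT19 (306 and 325), KRT18 (216 and 147) and EPCAM (213 and 143). Of the 9 S100 genes that passed the filter, 4 were lower in the same library as those 7 epithelial genes and 5 were higher in it. The 4 were S100A14, S100A16, S100A4 and S100A2. The 7 epithelial genes do not include KRT19 and CLDN3 (4.58 and 5.47), and a link between the S100 and the epithelial differences was not tested. Fibroblast markers were near 0 apart from COL1A1 (7.28 and 2.93 FPKM, log2 ratio -1.08), with 1 of 9 above the 1 FPKM threshold in both and a summed level of 7.82 in PF and 4.23 in PJ. PDGFRB was at 0.0887 and 0.689 FPKM, THY1 at 0.276 and 0.234, COL3A1 at 0.0783 and 0.331, and LUM at 0.000511 in PF, with 0 listed for PJ.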

How the data were processed

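RNA of 2 HCT116 cultures was sequenced. The submitters' processing notes name TopHat2 2.0.8b, TopHat, Cufflinks and the hg19 build. Which annotation and Cufflinks version were used, and whether counting used strand, is not given in the sources used here. For each gene the authors deposited an FPKM estimate, its confidence bounds and a status flag, as named in the headers. All estimates together come to 3053270 (PF) and 3492960 (PJ) FPKM, with 76.9% and 79.4% in genes spanning under 200 bp, so sums over all genes rest mostly on short ones. Genes flagged FAIL (23 and 20) were treated as missing, and rows sharing a symbol were summed. Coordinates are those of the tables, starts counted from 1.

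Log2 ratios used a pseudocount of 1 and were limited to symbols whose mean reached 1 FPKM. Coding sequences came from GENCODE release 29, aligned globally, and start windows from RefSeq (GRCh38.p14). No protein table was used, so protein identity was not computed. The genes and lists were chosen with earlier results of these data known. Named are all 10 genes, the other S100 genes, and of each list the 4 highest means, the lowest and up to 3 genes in each direction with the largest 2-fold differences, and the 8 highest neighbours in the cluster; an item that this rule would name is not reported here. AGER, S100PBP, the pseudogenes and the sequences shown were chosen after values were seen. Alternatives were other thresholds, pseudocounts, scalings and filters, each library alone, and, added after seeing the data, bound midpoints. Python 3.11.15, numpy 2.4.6, pandas 2.3.3 and matplotlib 3.10.9 were used.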

Additional observations from a re-analysis of the deposited data

How the results depend on the processing

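The number of the 10 genes expressed in both libraries was 9 at 0.5 FPKM and 8 at 5 FPKM, where S100A3 dropped out, and 9 in each library alone. Of the other S100 genes 1 passed in each library alone (from 1 to 1), and 0 passed at 5 FPKM. The number of genes 2-fold apart was 3 or 4 under every alternative run, but the background moved with the setting. Over all symbols it was 14.5% higher and 7.10% lower with a pseudocount of 0.1, and 3.88% and 2.19% with a pseudocount of 5. S100A10 fell short with the median ratio or the upper quartile divided out (0.80 and 0.81), S100A16 with a pseudocount of 5 (-0.9998) and S100A4 with bound midpoints (-0.9986). S100A14 ranged from -3.29 to -2.66. The median log2 ratio of the genes, 0.07, turned negative with the median ratio divided out (-0.18), with the upper quartile divided out (-0.17) and with a mean of 5 FPKM or more (-0.15), which leaves out S100A3. No paired analysis was possible because there is a single group of 2 libraries. The unknown depth limits S100P, whose lower bounds are 0 in both libraries.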

Other observations

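The pseudogenes S100A11P1 and S100A11P2, copies of S100A11 on chromosome 7, were listed at 0 FPKM in PF and at 0.0794 and 0.0911 in PJ, against 110 and 132 for S100A11. S100PBP, which encodes a protein that binds S100P, had 12.3 FPKM (bounds 9.84 to 14.8) in PF and 12.1 (10.3 to 14.3) in PJ, although S100P itself was below 1 FPKM in both libraries.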
